A study of Mus musculus with 104 samples.

Results

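The genes of oxidative phosphorylation were followed in mouse muscle stem cells across age, diet and time of day. Members were all genes whose single annotated symbol begins with Nduf, Uqcr, Atp5 or Cox4 to Cox8, or is Sdha, Sdhb, Sdhc, Sdhd or Cycs. The rule found 88 of 17097 genes with a single symbol, and each gene was represented by its probe set of highest mean over all arrays. A filter on dim probe sets, which kept means of at least 4.50 on the log2 scale, left 84 of the 88 members among 11853 genes. The members below it were Cox7b2, Ndufaf1, Ndufaf5 and Ndufaf6. Passing were 32 subunits of complex I, 4 of 7 assembly factors of complex I, the pseudogene Ndufs5-ps, 4 subunits of complex II, 7 of complex III, 17 of 18 of complex IV, 17 of complex V, Cycs and the supercomplex factor Cox7a2l.

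Oxidative phosphorylation takes place in the inner mitochondrial membrane. Complex I and complex II pass electrons from NADH and succinate to ubiquinone, complex III passes them to cytochrome c, complex IV passes them to oxygen, and complex V, the ATP synthase, uses the resulting proton gradient to make ATP. The members are the nuclear genes of this system, and several subunits of complex IV have paired isoforms, of which Cox6a2, Cox7a1 and Cox8b are known as the heart and skeletal muscle forms. Quiescent muscle stem cells are known for a low respiratory activity that increases on activation.

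All mice carried a Per1-Venus reporter as a bacterial artificial chromosome (BAC) transgene on a C57B6/J background, in every group and with no transgene-free control. Control mice ate a control diet without limit, and calorie-restricted (CR) mice received 30% less food for 25 weeks, after 3 weeks of adaptation with a 10% reduction per week. Adult mice were 19 to 29 weeks old at the start of the adaptation and aged mice 55 to 69 weeks. Adult cells gave 22 arrays on control diet and 32 under CR, and aged cells 24 and 26, collected at 6 times from T0 to T20 in steps of 4 h. Each arm had 4 to 6 arrays per time, except adult control at T20 with 1. Groups were taken from the titles. The age tag is 47 to 57 weeks for adult CR and 83 to 97 weeks for both aged arms. The 22 adult control arrays also carry the tag of 83 to 97 weeks, in conflict with their titles, so each value that involves adult control rests on the title. Per the design text, a collection day served a single time, so time of day and day of collection cannot be told apart beyond the spread of the replicate arrays. The titles call the arrays biological replicates, and p-values measure the spread between these arrays.

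Muscle stem cell markers were bright in every arm, with 15 of 16 measured, Cxcr4 being the exception, and arm medians of their mean log2 level from 9.40 to 9.59. Markers of other cell types were present too. The arm medians ran from 8.67 to 9.06 for Schwann cell markers, from 9.81 to 10.1 for pericyte and smooth muscle markers, and from 6.05 to 6.25 for the 12 of 16 myofibre markers measured. For 5 of 8 fibroadipogenic markers measured they ran from 9.52 to 9.76. Of these 5, limma called 2 lower under CR in adult cells, where 1.05% of all genes were called. With age on control diet it called 4 of 6 Schwann cell markers higher and 1 of 15 muscle stem cell markers lower (0.422% of all genes). With age under CR it called 2 of 6 Schwann cell and 2 of 5 pericyte and smooth muscle markers higher (1.94%). For diet in aged cells it called 1 of 2 macrophage markers higher under CR (2.29%). No source used here gives the gate or method of isolation. In bulk RNA of this kind, fewer cells of a type and less RNA per cell cannot be told apart.

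The promoters of 4 members on which the results below turn are given first, so that their upstream letters can be read beside their daily curves. They are Uqcrc1, a core subunit of complex III and rhythmic in every arm, Ndufa9 and Ndufb10, subunits of complex I, and Cox8b, a muscle isoform of complex IV. Each run is the 150 bases before the transcription start, 5′ to 3′ on the gene's strand, from RefSeq on GRCm38.p6. The positions are chr9:108936498-108936647 on the plus strand for Uqcrc1, and on the minus strand chr6:126849145-126849294 for Ndufa9, chr17:24724424-24724573 for Ndufb10 and chr7:140900447-140900596 for Cox8b. Capitals mark a match to one of 6 searched motifs.
Uqcrc1: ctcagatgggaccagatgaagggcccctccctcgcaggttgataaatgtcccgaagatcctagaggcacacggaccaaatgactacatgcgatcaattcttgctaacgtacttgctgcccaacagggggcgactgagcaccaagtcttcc
Ndufa9: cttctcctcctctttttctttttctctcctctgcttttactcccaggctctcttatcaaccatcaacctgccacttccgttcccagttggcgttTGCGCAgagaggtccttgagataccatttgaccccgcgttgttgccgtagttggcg
Ndufb10: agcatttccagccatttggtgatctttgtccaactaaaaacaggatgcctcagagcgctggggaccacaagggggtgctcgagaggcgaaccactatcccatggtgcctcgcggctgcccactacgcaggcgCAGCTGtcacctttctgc
Cox8b: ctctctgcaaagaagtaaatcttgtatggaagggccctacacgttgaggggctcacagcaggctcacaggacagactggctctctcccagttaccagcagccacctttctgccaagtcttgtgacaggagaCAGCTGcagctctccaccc

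The motifs were searched on both strands of the 250 bases before each start, in 76 promoters of 71 members and in 32851 promoters in all, and were chosen after the rhythms had been seen. Ndufa9 holds TGCGCA, the core of the site of NRF1, a regulator of respiratory chain genes. TGCGCA was in 14 of the 76 member promoters (18.4%) and in 6.43% of all. The longer NRF1 form GCATGCGC, which can overlap TGCGCA, was in 10 (13.2%, against 2.26%). CCGGAAG, a form of the ETS and GABP site, was in 12 (15.8%, against 6.91%). Ndufb10 and Cox8b hold CAGCTG, an E-box form read by myogenic factors, which was in 5 member promoters (6.58%, against 13% of all). The circadian E-box CACGTG was in 7 (9.21%, against 6.02%), and AAGGTCA, an orphan nuclear receptor motif, in 4 (5.26%, against 4.08%). Among the 26 promoters of members rhythmic in at least 1 arm, 9 held TGCGCA (34.6%), and 5 of the other 50 did (10%). The remaining motifs were in 3 of 26 against 7 of 50 for GCATGCGC, 3 against 9 for CCGGAAG, 3 against 2 for CAGCTG, 2 against 2 for AAGGTCA and 1 against 6 for CACGTG. The 150 bases of Uqcrc1 held none of the 6 motifs.

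The complexes were read as the mean log2 level of their subunits in each array. For complex I the arm medians, in an order kept throughout (adult mice on control diet, adult mice under CR, then the same for aged mice), were 8.39, 8.45, 8.44 and 8.48, and single arrays ran from 7.90 to 8.93. Ndufv1, its NADH-binding subunit, averaged 10.4 and Ndufab1 averaged 6.57, and levels of different probe sets are not comparable as amounts. Complex II medians were 7.01, 7.02, 7.03 and 6.98, with arrays from 6.39 to 7.77. Complex III medians were 8.16, 8.13, 8.12 and 8.17, with arrays from 7.69 to 8.69. The 4 arms overlapped in both complexes. Complex IV medians were 8.00, 8.02, 8.09 and 8.07, with arrays from 7.61 to 8.49. Complex V medians were 8.90, 8.94, 8.91 and 8.97, with arrays from 8.54 to 9.54. The arms overlapped here too.

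Mean levels over the day were compared between arms with limma on all 11853 genes, and Benjamini-Hochberg adjusted p-values were held to 5%. A single member passed in any comparison of levels. Cox4i2, the isoform of complex IV subunit 4 that is known for its response to low oxygen, was lower in aged CR than in aged control cells. No member passed for age under control diet, where 0.422% of all genes did, for age under CR, where 1.94% did, or for diet in adult cells, where 1.05% did. For diet in aged cells 1 of 84 members passed, against 2.29% of all genes. The test of whether the diet difference itself differed between ages called no member and 0% of all genes. At an unadjusted p below 0.05, limma gave 6, 5, 8 and 4 members in the 4 comparisons in that order (7.14%, 5.95%, 9.52% and 4.76%, against 10.3%, 14.3%, 13.1% and 15.4% of all genes). It gave 2 (2.38%, against 7.66%) for the difference between the diet differences.

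The precision of these level comparisons was high enough to bound the differences. The 95% interval of the difference lay within 0.5 on the log2 scale, or 1.41-fold, for 83 of 84 members in the age comparison under control diet and for all 84 in the other 3 comparisons between arms. Member medians were 0.03 for aged over adult cells on control diet and 0.05 for CR over control in adult cells, with 59 and 60 of 84 members above 0 (70.2% and 71.4%, against 54.3% and 53.1% of all genes). Under CR the median for age was -0.002, with 42 of 84 above 0. For diet in aged cells it was -0.001, with 41 above 0.

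**Figure D1:**
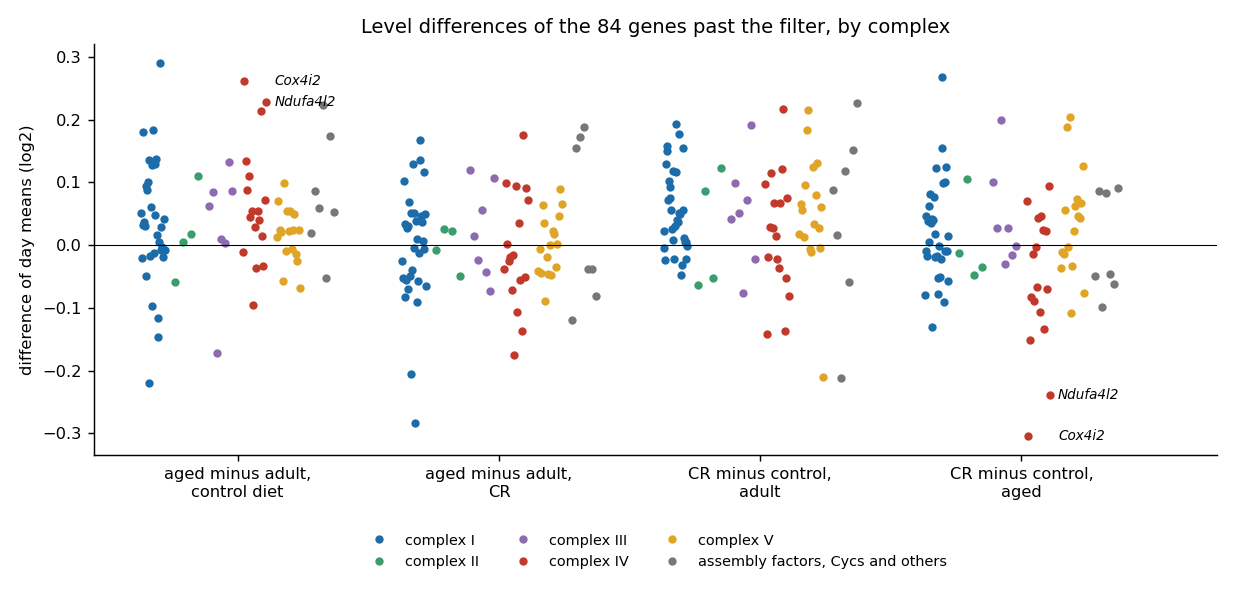
Log2 difference of the day mean of every member (points, by complex) for age and diet in the 4 comparisons between arms, with 0 marked. The largest difference shown is that of Cox4i2 for diet in aged cells, at -0.30, which is the one that passed the limma test.

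Cox4i2 levels in aged control arrays were 6.48 at the lowest, 7.04 at the median and 7.52 at the highest. In aged CR arrays they were 6.13, 6.65 and 7.58. The arms overlapped, and the sign was the same at 6 of 6 times. The difference of the day means was -0.30 ± 0.08 (SE), with a 95% interval from -0.47 to -0.14 and an adjusted p of 0.0266 (limma). This is a level in aged control cells 1.23-fold that in aged CR cells.

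In the adult arms Cox4i2 ran from 6.16 through a median of 6.84 to 7.51 on control diet and from 6.30 through 6.67 to 7.25 under CR. The adult diet difference was -0.14 with an adjusted p of 0.468 (limma), and the difference between the diet differences was -0.16 ± 0.12 (SE) with an adjusted p of 0.782. Cox4i1, the common isoform of the same subunit, differed between aged CR and aged control cells by 0.07 (adjusted p 0.576, limma). The Cox4i2 call was lost in the fit of the 2 aged arms alone (adjusted p 0.0652), without the T20 arrays (0.0514), with the Schwann marker level as a covariate (0.0542) and in 1 of 50 omissions of a single array, that of aged control T12 replicate 2 (0.0523).

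Pericyte markers were read beside it, because Cox4i2 and Ndufa4l2 are known to be enriched in mural cells. In the same comparison Rgs5 differed by -0.44 (adjusted p 0.087), Pdgfrb by -0.31 (0.107), Acta2 by 0.29 (0.0739), Myh11 by 0.37 (0.117) and Des by 0.17 (0.127), and limma called none of the 5 measured. At an unadjusted p below 0.05, however, limma gave all 5, with 3 higher and 2 lower under CR, against 15.4% of all genes. These differences have both signs and the mean level of the 5 differed by 0.02, so it could not serve as a covariate for them. The part of single pericyte markers in the Cox4i2 difference was not tested.

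Ndufa4l2, the paralogue of the complex IV component Ndufa4 that is induced in low oxygen, had the next smallest p in that comparison but did not pass. Its levels ran from 6.50 through a median of 7.15 to 7.81 in aged control and from 6.50 through 6.93 to 7.47 in aged CR arrays, and the arms overlapped. The difference was -0.24 ± 0.08 (SE), with an adjusted p of 0.0918 (limma). For aged over adult cells on control diet it was 0.23 (adjusted p 0.267), beside 0.26 (0.186) for Cox4i2.

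**Figure D2:**
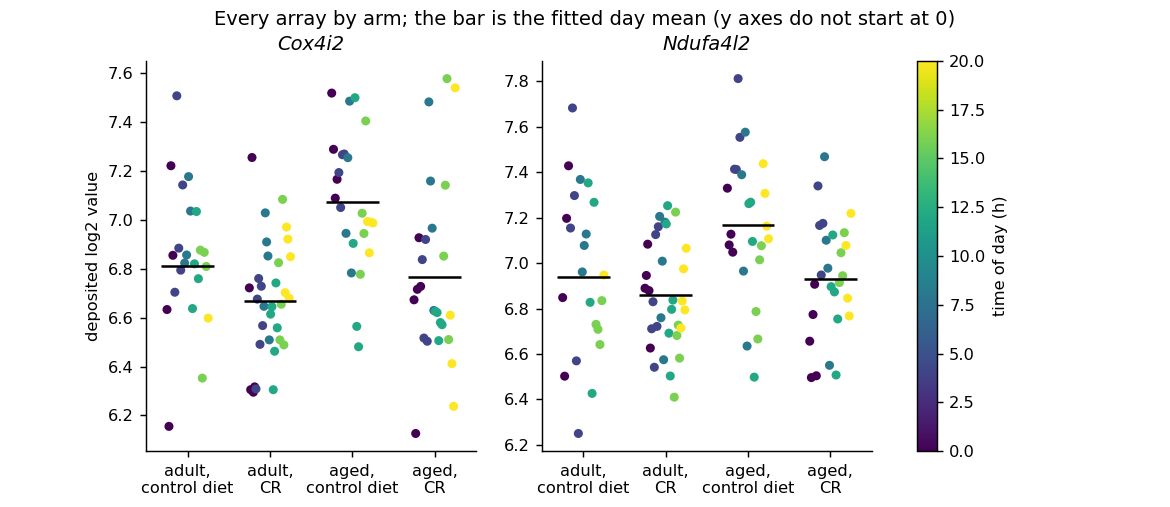
Log2 level of Cox4i2 and Ndufa4l2 in every array (points, coloured by time of day) of the 4 arms, with the fitted day mean as a bar. The arms overlap for both genes, and the aged CR arrays of Cox4i2 have a median of 6.65 against 7.04 in aged control.

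The other isoform pairs gave no call in any level comparison. For diet in aged cells the differences were -0.01 for Cox6a1 and -0.09 for Cox6a2, 0.00 for Cox6b1 and -0.07 for Cox6b2. They were 0.05 for Cox7a2 and -0.11 for Cox7a1, -0.13 for Cox8a and 0.02 for Cox8b. None of these 8 passed, and their standard errors ran from 0.05 to 0.13.

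Within complexes, no subunit of complexes I, II, III or V passed in a level comparison. The complex I subunits with an unadjusted p below 0.05 were Ndufs4 (0.29), Ndufa12 (0.18) and Ndufab1 (-0.22), the acyl carrier protein, for age on control diet. Under CR they were Ndufb5 (-0.28, adjusted p 0.165, limma) and Ndufab1 (-0.21) for age. For CR over control they were Ndufb9 (0.18) and Ndufa2 (0.16) in adult cells and Ndufs1 (0.27, adjusted p 0.107), a core iron-sulfur subunit, in aged cells. In complex V, Atp5g2, one of 3 genes for the same membrane ring subunit, differed by 0.22 (adjusted p 0.128) for diet in adult and 0.21 (0.111) in aged cells.

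Daily rhythms were tested with limma as a cosine and sine of 24 h in each arm. The fitted amplitude is the distance from the day mean to the peak on the log2 scale, and peak times are given in hours on the T scale. Of 84 members, 5 were rhythmic in adult control, where 10.6% of all genes were, 15 in adult CR, where 22.4% were, 7 in aged control, where 10.8% were, and 17 in aged CR, where 16.5% were. The shares of members were 5.95%, 17.9%, 8.33% and 20.2%. Members were thus called at a rate below the background in 3 arms and a little above it in aged CR.

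The median fitted amplitude of the members was 0.16, 0.13, 0.16 and 0.18 in that order of arms, beside 0.14, 0.13, 0.14 and 0.14 for all genes. By complex, rhythmic subunits numbered 2, 5, 5 and 7 of 32 in complex I, 0, 1, 0 and 0 of 4 in complex II, 1, 2, 1 and 2 of 7 in complex III, 1, 2, 1 and 4 of 17 in complex IV, and 1, 4, 0 and 3 of 17 in complex V. Members called in 0, 1, 2, 3 and 4 arms numbered 53, 21, 8, 1 and 1 (63.1%, 25%, 9.52%, 1.19% and 1.19%), and the shares over all genes were 61.8%, 23.5%, 9.4%, 3.53% and 1.83%. Those called in 2 arms were Atp5a1, Atp5mpl, Atp5o, Cox7a1, Ndufa6, Ndufa9, Ndufb10 and Uqcr10. Ndufa1 was called in 3 arms and Uqcrc1 in 4.

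Uqcrc1, core protein 1 of complex III, had its highest mean at T0 in adult CR and aged control, at T20 in aged CR and at T8 in adult control (8.54). Arrays of single genes are listed, here and below, at the times of highest and lowest mean in the arm. That choice was made from the same values and favours a lack of overlap, which is given as description only. In aged control arrays it read 8.53, 8.72, 8.88 and 8.73 at T0 and 7.82, 8.00, 8.10 and 8.08 at T16, with no overlap. In aged CR arrays it read 8.28, 8.63, 8.56 and 8.64 at T20 and 7.68, 7.93, 7.96, 7.93 and 8.09 at T12, again with no overlap. In adult CR arrays the mean was 8.49 at T0 and 7.94 at T12. Single arrays there ran from 7.92 to 9.08 at T0 and from 7.64 to 8.25 at T12, with overlap.

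The fitted Uqcrc1 amplitude was 0.26 ± 0.08 (SE) in adult control (adjusted p 0.0432, limma) and 0.27 ± 0.06 in adult CR (0.00235). It was 0.34 ± 0.07 in aged control (0.00223) and 0.29 ± 0.07 in aged CR (0.00341). The fitted peaks lay at 5.98 ± 1.07 h, 2.31 ± 0.89 h, 2.97 ± 0.81 h and 0.69 ± 0.93 h. Differences between peaks did not pass as differences of the curves, at -3.67 ± 1.39 h (SE) for CR minus control in adult (adjusted p 0.785) and -2.28 ± 1.23 h in aged cells (0.56). The adult control value rests in part on the single T20 array, at 7.32. Without the T20 arrays the adjusted p there was 0.233, and in the other 3 arms it was 0.0023, 0.00367 and 0.00586.

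**Figure D3:**
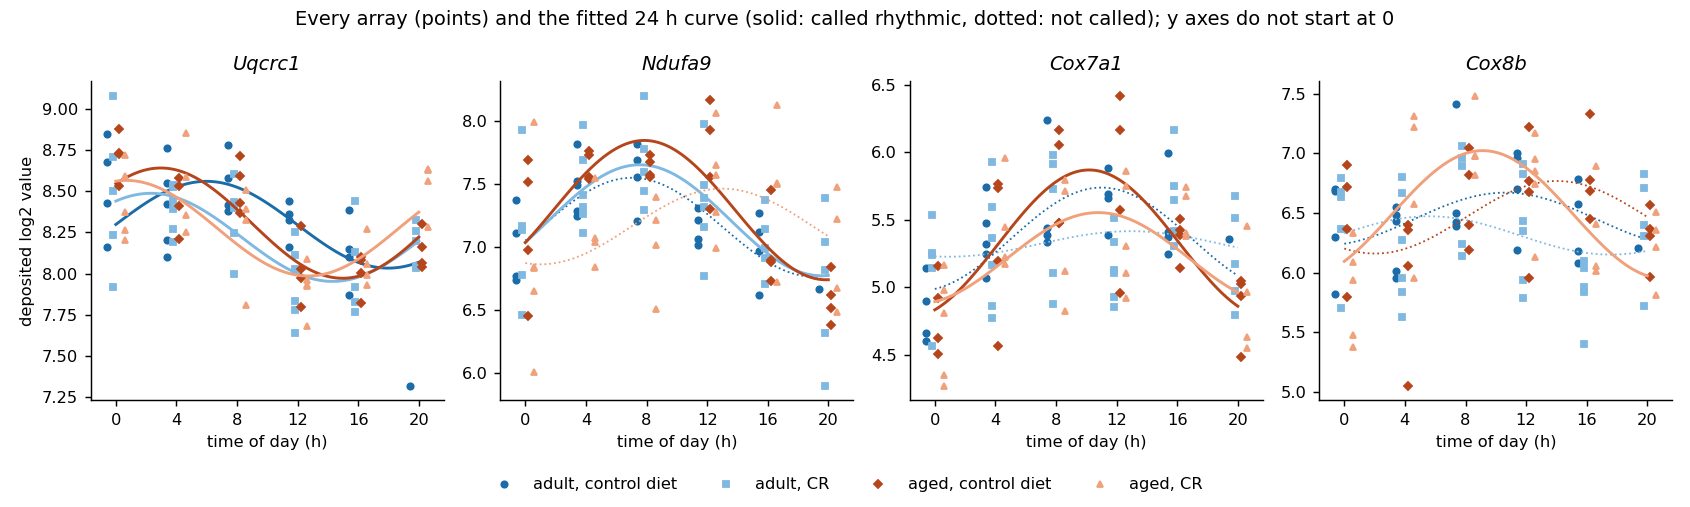
Log2 level by time of day for Uqcrc1, Ndufa9, Cox7a1 and Cox8b in the 4 arms, with the arrays as points and the fitted 24 h curve as a line (solid where the rhythm was called, dotted where not). The Uqcrc1 curve is solid in all 4 arms, with fitted peaks from 0.69 to 5.98 h.

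Ndufa9, an accessory subunit of complex I, was rhythmic in adult CR and aged control cells. Aged control arrays read 7.56, 7.31, 7.93 and 8.17 at T12 and 6.62, 6.38, 6.85 and 6.52 at T20, with no overlap. Adult CR arrays read 7.45, 7.78, 8.21, 7.60 and 7.30 at T8 and 6.32, 5.90, 7.39, 6.82 and 7.04 at T20, where a single array, at 7.39, passed the lowest T8 array. The amplitudes were 0.55 ± 0.11 (SE; adjusted p 0.00105, limma) with a peak at 7.85 h and 0.44 ± 0.10 (0.00164) with a peak at 7.55 h. These are trough-to-peak changes of 2.15-fold and 1.84-fold. Ndufa9 also had the smallest p of all members for a rhythm difference, with a fitted peak 5.15 ± 1.58 h later in aged CR than in aged control, though its adjusted p of 0.119 did not pass.

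The other complex I subunits named here had fitted peaks between 4.31 and 12.02 h. Ndufb10 was rhythmic in adult CR (amplitude 0.28, peak 5.38 h, adjusted p 0.000955, limma) and aged control (0.23, 4.31 h, 0.0438), and its arm medians were 8.98, 9.02, 8.98 and 9.05. Ndufa1, a small membrane subunit needed for assembly, peaked at 9.32, 7.61 and 8.04 h in adult control, adult CR and aged control, with amplitudes of 0.40, 0.27 and 0.38. In aged CR the called subunits with the smallest p were Ndufv2 (amplitude 0.31, peak 8.68 h, adjusted p 0.00418), Ndufa6 (0.38, 7.64 h, 0.00445) and Ndufc2 (0.43, 8.03 h, 0.00681). In aged control Ndufs7 peaked at 10.8 h and Ndufab1 at 12.02 h. The assembly factor Ndufaf2 was rhythmic in adult CR, with a peak at 2.24 h (amplitude 0.38, adjusted p 0.0159), and in adult control the further complex I call was Ndufb4 (0.39, 6.86 h, 0.0461).

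In complex IV the muscle isoform Cox7a1 was rhythmic in both aged arms, and Cox8b in aged CR (adjusted p 0.181 in aged control, limma). Arrays of both genes are again listed at the times of highest and lowest mean. Cox8b read 7.49, 6.98, 6.82 and 6.98 at T8 and 6.33, 6.09, 5.37, 5.94 and 5.48 at T0 in aged CR arrays, with no overlap. Its amplitude there was 0.54 ± 0.12 (SE; adjusted p 0.00254, limma), or 2.10-fold from trough to peak, with a peak at 9.13 h. Cox7a1 read 4.92, 5.15, 4.63 and 4.50 at T0 and 6.05, 6.16, 5.47 and 5.47 at T8 in aged control arrays, again with no overlap.

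The Cox7a1 amplitude was 0.55 ± 0.11 (SE) in aged control (adjusted p 0.00114, limma) and 0.34 in aged CR (0.0374), with peaks at 10.2 and 10.8 h. Cox6a2 was called in adult control (0.19, 12.02 h, 0.049). Cox8a, the general partner of Cox8b (0.54, 8.62 h, 0.00821), and the subunit Cox5b (0.23, 9.99 h, 0.00523) were called in aged CR, and Cox6b2 in adult CR (0.33, 2.35 h, 0.00303).

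Myofibre markers were read beside these isoforms. Of the 12 measured, 1, 2, 1 and 0 were called in the 4 arms (limma), where 10.6%, 22.4%, 10.8% and 16.5% of all genes were. A fitted peak between 4 and 12 h was found for 4, 9, 2 and 4, beside 31.3%, 31.7%, 28.4% and 36.3% of all genes. The mean level of the 12 had fitted peaks at 12.1, 10.4, 12.3 and 13.1 h, with amplitudes of 0.36, 0.22, 0.47 and 0.27. Tnnc2, the fast troponin C and the marker of smallest p in each arm, had fitted peaks at 11.1, 11.4, 12.1 and 11.9 h, with adjusted p-values of 0.0123, 0.00495, 0.00248 and 0.0809 (limma). With the myofibre marker level as a covariate, the rhythms of Cox7a1 in aged control and Cox8b in aged CR kept their calls (adjusted p 0.0077 and 0.00334), and that of Cox6a2 in adult control did not (0.154).

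In complex V, Atp5a1, the alpha subunit of the catalytic head, was called in both CR arms. It read from 9.13 through a median of 9.53 to 9.89 in adult CR and from 9.15 through 9.49 to 9.87 in aged CR arrays. The amplitudes were 0.15 (adjusted p 0.00875, limma) and 0.16 (0.0127), with peaks at 23.0 and 22.6 h. Atp5o, the stalk subunit that links the rotor housing to the catalytic head, peaked at 3.87 h in adult control (0.24, 0.0471) and 2.73 h in adult CR (0.20, 0.0322). Complex II gave a single call, for Sdhd, a membrane anchor, in adult CR at 6.49 h.

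Whether rhythms differed between arms was tested on the fitted curves themselves. No member passed in any of the 4 comparisons, in which 0% (age on control diet), 0.00844% (age under CR), 0.0253% (diet in adult) and 0.388% (diet in aged) of all genes passed. At an unadjusted p below 0.05, limma gave 0, 3, 3 and 7 members (0%, 3.57%, 3.57% and 8.33%, against 4.04%, 9.86%, 6.45% and 13.8% of all genes). The smallest adjusted p-values were 0.999, 0.277, 0.639 and 0.119. A rhythm called in one arm and not in another was thus not shown to differ between them. Beside Ndufa9, Cox8b had a fitted peak 4.904 ± 1.77 h earlier in aged CR than in aged control cells, with an adjusted p of 0.221.

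Fitted peaks of the members, called or not, gathered between 4 and 12 h. They numbered 61, 53, 64 and 64 of 84 in the same order of arms (72.6%, 63.1%, 76.2% and 76.2%), beside 31.3%, 31.7%, 28.4% and 36.3% of all genes. Among called members 3 of 5, 9 of 15, 5 of 7 and 14 of 17 peaked there, and among all called genes 29.7%, 31.1%, 25.2% and 32.3% did. Without the T20 arrays the counts over all 84 were 57, 40, 36 and 50 (67.9%, 47.6%, 42.9% and 59.5%). The shares of all genes were then 32.3%, 32.3%, 29.3% and 37.6%. These shares are a description, since the members were read on the same arrays and are no replicates.

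The levels at T20 are given as a description made after the pattern was noticed. At T20 the members lay below their mean over the other 5 times, with medians of -0.25 in adult control (a single array), -0.30 in aged control, and -0.19 and -0.28 in the adult and aged CR arms. Below 0 were 78, 73, 80 and 71 of 84 members, beside 47.7%, 50%, 46.7% and 50.6% of all genes. In all 4 arms 62 members were below 0 (73.8%, against 15.3% of all genes), and 12 were so in 3 arms, 8 in 2 and 2, Atp5a1 and Ndufa4l2, in 1.

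**Figure D4:**
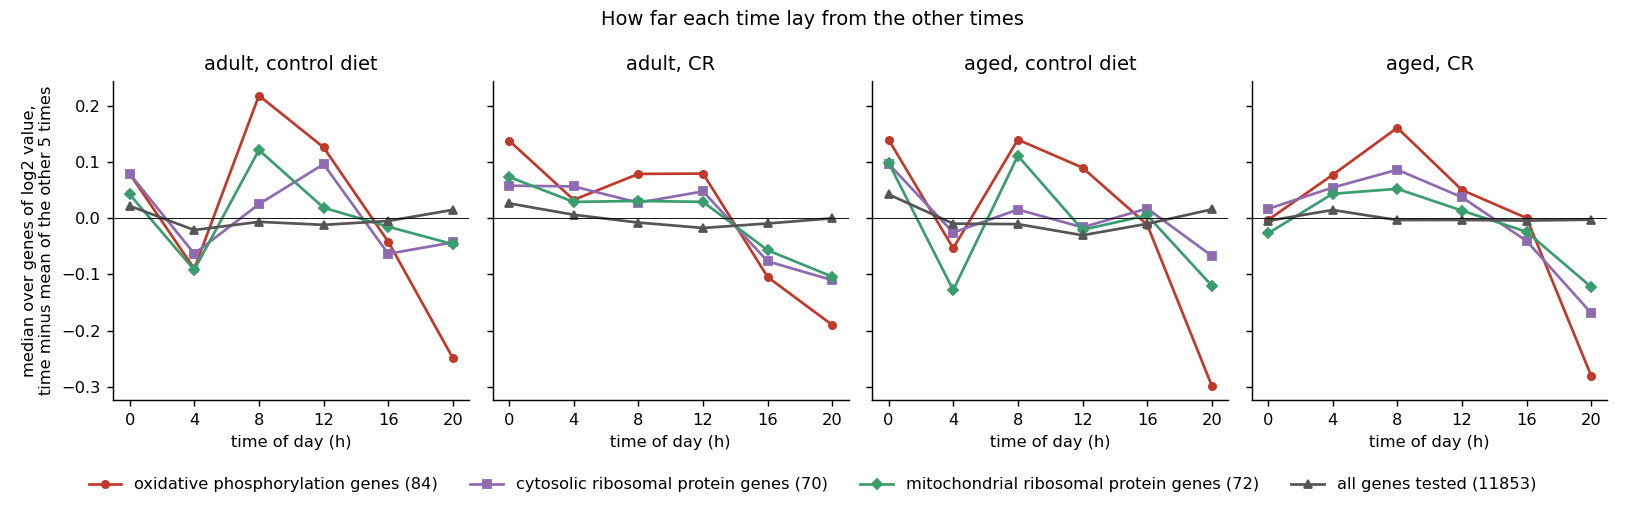
Median over genes of the log2 level at each time minus the mean of the other 5 times, in the 4 arms, for the 84 members, 70 cytosolic and 72 mitochondrial ribosomal protein genes and all genes tested. The member values at T20 are the lowest of each arm, at -0.25, -0.19, -0.30 and -0.28, and adult control has 1 array there.

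The dip ran through complexes I, III, IV and V. Complex I medians at T20 were -0.39, -0.25, -0.34 and -0.36, with 30, 31, 32 and 30 of 32 subunits below 0. Those of complex III were -0.26, -0.06, -0.23 and -0.25, of complex IV -0.21, -0.14, -0.27 and -0.34, and of complex V -0.20, -0.17, -0.28 and -0.23. Complex II gave -0.49, -0.18, -0.21 and 0.01, with 4 subunits. T20 was not always the lowest time of the mean subunit level. In adult CR, complexes II, III and V were lowest at T16 (6.92, 8.01 and 8.78), and in aged CR complex II at T12 (6.95). The mean level of the complex I subunits in aged control arrays ran from 8.41 to 8.74 at T8 and from 7.93 to 8.24 at T20, with no overlap.

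In aged CR arrays complex I ran from 8.41 to 8.70 at T8 and from 7.90 to 8.49 at T20, and in adult CR from 8.35 to 8.60 and from 7.92 to 8.53, both with overlap. Complex IV in aged CR ran from 7.95 to 8.35 at T8 and from 7.62 to 7.89 at T20, with no overlap. The single members furthest below 0 at T20 in aged control were Ndufa9 (-0.84), Ndufa3 (-0.65), Ndufc2 (-0.65), Sdhb (-0.64), the iron-sulfur subunit of succinate dehydrogenase, and Cox5a (-0.63). Cox8a gave -0.52, -0.64, -0.39 and -0.89.

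**Figure D5:**
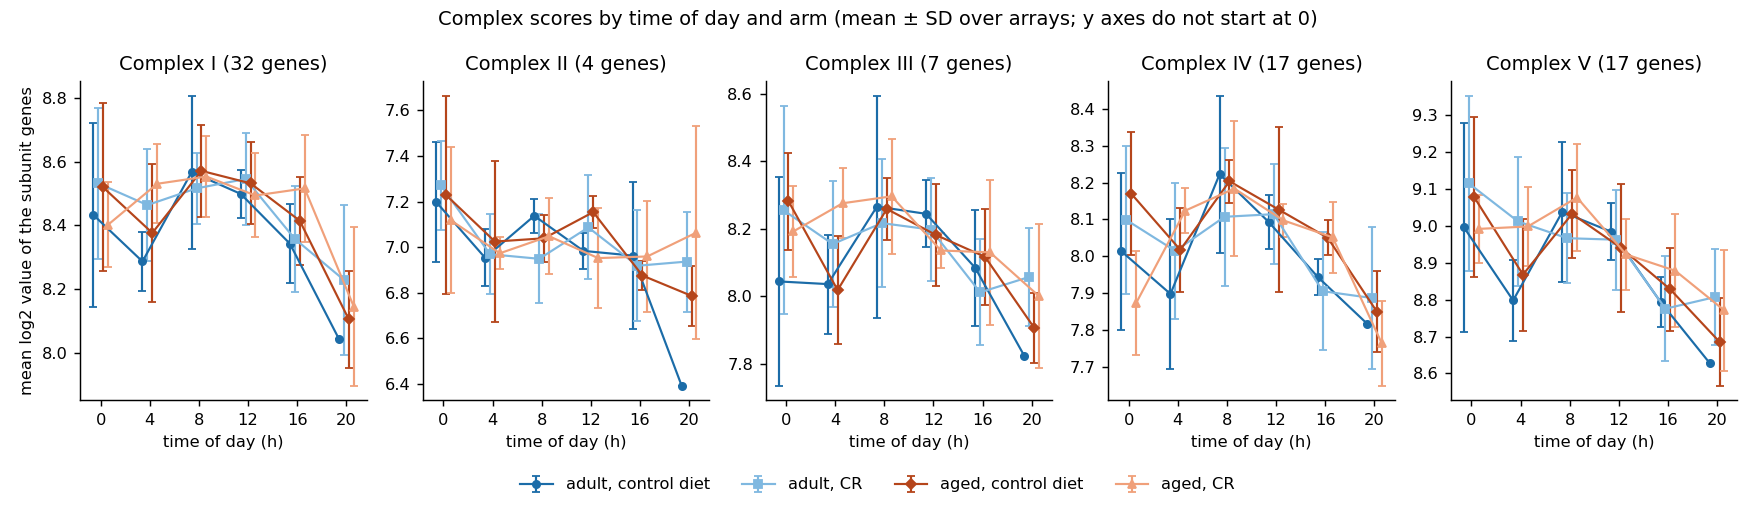
Mean log2 level of the subunits of complexes I to V by time of day in the 4 arms, as the mean over arrays (points joined by lines) with the SD over arrays as bars, and no bar for the single adult control array at T20. The complex I mean in aged control is 8.57 at T8 and 8.10 at T20.

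Other gene lists gave the following medians at T20 in the same order of arms, the ribosomal and proteasome lists being added after the pattern was seen. Cytosolic ribosomal protein genes gave medians of -0.04, -0.11, -0.07 and -0.17, mitochondrial ribosomal genes -0.05, -0.10, -0.12 and -0.12, and proteasome genes -0.20, 0.01, -0.16 and -0.07. Tricarboxylic acid cycle genes gave -0.07, -0.05, -0.14 and -0.03, and muscle stem cell markers 0.02, 0.02, 0.02 and 0.16. Myofibre markers gave -0.19, 0.00, -0.42 and -0.02, and pericyte markers -0.92, -0.21, -0.11 and -0.30. Schwann cell markers gave -0.04, -0.12, -0.25 and -0.01, with 6 of 6 below 0 in aged control, fibroadipogenic markers 0.01, -0.10, -0.11 and -0.05, and tenocyte markers -0.40, -0.71, 0.16 and 0.38. The 3′ minus 5′ difference of the array's Gapdh control probe sets averaged -0.05 to 0.06 over the arms at T20 and -0.16 to -0.11 at T8, with no overlap, in a range of -0.16 to 0.14 over all arms and times. The Gapdh difference averaged -0.005 to 0.02 at T0 and 0.04 to 0.14 at T4, so T20 was not its highest time. That of Actb averaged -0.57 to -0.50 at T20 and -0.63 to -0.56 at T8. At T0 and T4 the Actb difference averaged -0.53 to -0.41 and -0.57 to -0.52. The part of these measures in the dip was not tested.

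Without the T20 arrays, rhythmic members numbered 0, 8, 3 and 5, beside 9.38%, 16.9%, 7.05% and 12.3% of all genes. Atp5a1, Atp5j2, Atp5o, Cox6b2, Cox7c, Ndufaf2, Ndufb10 and Uqcrc1 were called in adult CR. Cox7a1, Ndufb10 and Uqcrc1 were called in aged control, and Cox6b2, Cox8b, Ndufs5-ps, Uqcr10 and Uqcrc1 in aged CR. Of these, 7, 3 and 4 had also been called with T20.

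Omission of single arrays showed how far the arms rest on them. For adult control each of the 5 rhythm calls was lost in at least 8 of 22 omissions, and no member was left without T20 replicate 1 or without T16 replicate 1. In adult CR the count fell to 7 without T16 replicate 1 and to 9 without T20 replicate 4. In aged control, Ndufa1 and Ndufab1 each lost the call in 2 of 24 omissions. Uqcrc1, Ndufa9, Cox7a1 and Ndufs7 kept theirs there, as did the 6 rhythms of smallest p in each CR arm. Over the alternative fits, Ndufs7 in aged control kept its call in 8 of 12 and Ndufa9 in 11 of 12 in each of its arms. In aged CR, Cox5b and Ndufv2 kept theirs in 10 of 12, and Ndufa6 and Ndufc2 in 11 of 12. All of these calls were lost without the T20 arrays, while Uqcrc1 and Cox7a1 in aged control kept theirs in every alternative.

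Members with several probe sets did not always give the same call. Of 40 members with more than 1 probe set above the limit, 13 had a call in some arm or comparison that the brightest set did not give. These were 14 rhythm calls and 2 level calls in a limma fit over all probe sets of a single symbol. The 13 members were Ndufa10, Ndufa12, Ndufab1, Ndufaf8, Ndufb2, Ndufb5, Ndufb11, Ndufs4, Sdha, Uqcr10, Cox6a1, Cox7a2 and Atp5c1. Among them, the brightest set was itself called rhythmic for Ndufab1 in aged control, Ndufb11 in aged CR, Cox6a1 in adult CR and Uqcr10 in both CR arms. Sdha, the flavoprotein of complex II, was rhythmic in adult CR through its second set (amplitude 0.36, peak 4.56 h, adjusted p 0.00011). A dimmer set of Uqcr10, a small subunit of complex III, was lower in aged than in adult control cells (-0.46, adjusted p 0.0466) and in adult CR than in adult control (-0.43, 0.0298), while its brightest set gave 0.06 and 0.04. In adult CR those sets of Uqcr10 peaked at 18.6 and 8.47 h. Conversely, 10 rhythm calls of the brightest set were shared by no other set of that gene. By the other set, the limma adjusted p was 0.709 for Ndufv2 in aged CR. In aged control it was 0.169 for Ndufs7 and 0.257 for Ndufab1. For Ndufb4 and Atp5o in adult control it was 0.22 and 0.228, and for Atp5o in adult CR 0.202. At least 1 other set shared the calls of Cox5b, Cox8a, Ndufa5, Ndufb11 and Uqcr10 in aged CR. For Uqcr10 in adult CR the only other called set was the one that peaked at 18.6 h, so the brightest set's rhythm was not shared there. Of the 84 members, 15 were read by a probe set of a type shared between similar transcripts.

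The wider mitochondrial programme was read from lists that do not overlap the members. No level call was made in 29 assembly factors, 14 tricarboxylic acid cycle genes, 14 fatty acid oxidation genes or 11 mitochondrial carriers and defence genes. Of 14 regulators of mitochondrial biogenesis, Yy1 was higher in aged CR than in aged control cells (0.19, adjusted p 0.0444, limma). Among glycolysis genes in the same comparison, Pfkl, a phosphofructokinase, was higher (0.42, 0.0353) and Ldha, which makes lactate, lower (-0.15, 0.0446), and Ldhb was higher in aged than adult cells under CR (0.28, 0.0227).

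Rhythmic genes in these lists numbered 2, 6, 3 and 6 of 29 assembly factors, 0, 4, 2 and 3 of 14 tricarboxylic acid cycle genes, and 2, 6, 3 and 5 of 14 fatty acid oxidation genes in the 4 arms. The shares were 6.9%, 20.7%, 10.3% and 20.7% for assembly factors and 0%, 28.6%, 14.3% and 21.4% for the cycle. For fatty acid oxidation they were 14.3%, 42.9%, 21.4% and 35.7%. Of all genes, 10.6%, 22.4%, 10.8% and 16.5% were rhythmic. Ecsit, a complex I assembly factor, was rhythmic in every arm, with peaks at 22.7, 0.08, 0.45 and 0.35 h. Cpt1b, the muscle form of the enzyme that admits fatty acids to mitochondria, was also rhythmic in every arm, at 1.87, 3.87, 1.17 and 3.62 h. Of the regulators 0, 6, 0 and 2 of 14 were rhythmic (0%, 42.9%, 0% and 14.3%, beside the same shares of all genes). Esrra, an orphan nuclear receptor that drives respiratory genes, peaked at 7.29 h in adult CR and 8.41 h in aged CR, and Tfam, the mitochondrial transcription factor, at 5.33 h in aged CR. Nrf1 and Gabpa were called in no arm, and Ppargc1a was not measured by a probe set of a single symbol.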

How the data were processed

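RNA of 104 mouse muscle stem cell samples was measured on 1-colour Affymetrix arrays. Per the labels' protocols it was extracted with TRIzol, amplified with WTA2 and biotinylated. The deposited values are on a log2 scale and were made by the authors with RMA, per the submitters' processing notes. The version is not stated, and the log2 base was read from the range of the deposited values (1.19 to 12.8). RMA compresses differences near the floor. All arms carry the Per1-Venus transgene, and 45141 probe sets were measured, of which 28898 have 1 symbol, 551 several and 15692 no listed gene. Arrays have no read depth, so their number limits the precision.

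Dim probe sets, with means under the 40th percentile, were left out and the brightest set was kept per gene. A single model in limma 3.58.1 under R 4.3.3 took all arrays, each arm having its own day mean, cosine and sine of 24 h. Levels used the moderated test of differences of day means, and rhythms the moderated F test of cosine and sine or of their differences. The Benjamini-Hochberg adjustment ran over 11853 genes. A complex score is the mean log2 level of its subunits past the filter. The fits were tested on simulated data.

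The members, lists and tests were chosen with earlier results of these data known. Named members are those called for a level, the 6 rhythmic members of smallest p per arm, the brightest and dimmest of a complex, the isoform pairs and members whose probe sets disagree. Other members are named where they are part of a count or of the description of T20, and those were chosen after their values were seen. Replicate correlations and 0 identical arrays were checked. Alternatives were other filters, the mean of all probe sets, fits of only the arms compared, time as levels, omission of T20 or of each array, array weights, quantile normalization, marker scores or a residual component as covariates, and a replicate block. Some items are not reported here.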

Additional observations from a re-analysis of the deposited data

Results flagged for a closer look

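In 7 of the 115 groups of an arm, a time and a complex that held at least 4 arrays (6.09%), 1 array stood apart from the others by Dixon's 95% critical value. Chance flags about 1 in 20 groups. In adult CR at T12, replicate 1 was the highest array for complex I, at 8.82 against 8.41 to 8.54, and for complex IV, at 8.37 against 8.00 to 8.12. In adult CR, replicate 4 at T0 was the highest for complex V, at 9.54 against 8.97 to 9.07, and replicate 1 at T16 was the lowest for complex III, at 7.74 against 8.06 to 8.13. In adult control at T8, replicate 3 was the highest for complex II, at 7.25 against 7.10 to 7.11. In aged control, replicate 2 at T8 was the highest for complex IV, at 8.29 against 8.17 to 8.18, and replicate 1 at T20 the lowest for complex II, at 6.59 against 6.83 to 6.87.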

How the results depend on the processing

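Counts of rhythmic members moved most. In adult control, where 5 were called, they were 3 with the mean of all probe sets, 12 with time as 6 levels, 0 without T20, 3 after quantile normalization and 1 with the Schwann score as a covariate. In adult CR (15) they were 8 without T20 and 23 with the first principal component of the residuals as a covariate. In aged control (7) they were 15 with time as 6 levels, 3 without T20, and 12 each with array weights and the residual component. In aged CR (17) they were 5 without T20 and 30 with the residual component. For levels, age under CR gave 2 members with the residual component (Cox7a2l and Ndufb5), diet in adult 1 with time as 6 levels (Ndufs5-ps), and diet in aged 0 with only the 2 arms compared, without T20 and with the Schwann score. The cause was not tested. No rhythm difference was called under any alternative, and no direction reversed.

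Single omitted arrays gave 0 to 5 rhythmic members in adult control, 7 to 17 in adult CR, 5 to 8 in aged control and 12 to 21 in aged CR. They gave 0 to 1 level calls for diet in adult (Cox7c without adult control T0 replicate 1) and 0 to 2 for diet in aged (Ndufa4l2 was added without aged control T8 replicate 4).

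Replicate numbers did not pair the arrays: 4 of 21 adult and 6 of 24 aged pairs correlated above 0.1. With the replicate block, rhythmic members numbered 5, 13, 6 and 16, and Cox4i2 for diet in aged gave -0.30 (adjusted p 0.0374, limma).

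The limits are the single adult control array at T20, the age tags of that arm, the unknown isolation gate and the presence of other cell types' markers.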
